A study of Mus musculus with 22 samples.

Results

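Ribosome-bound RNA pulled down from the cochleae of 6-week-old mice was compared with RNA of the whole cochlea at the same age. The comparison used 4 of the 22 libraries of the series, chosen by their titles: 2 pulldown libraries (IP, antibody against the haemagglutinin, HA, tag) and 2 whole-cochlea libraries (input, no antibody). All 49671 gene identifiers of the tables entered, and 18737 of them passed the filter on low values and were tested. Both groups were 6 weeks old, of the genotype PrestinCreERT2/+;RiboTagHA/+, and had received tamoxifen, at a dose that the labels set by age (3 mg per 40 g body weight under 21 days, 9 mg per 40 g from 21 days on). The remaining 18 libraries were IP and input of the same genotype at 8, 14 and 28 days and at 10 weeks, with 2 libraries per fraction, or 3 at 10 weeks. For the age that the labels give as 28 days, the design text of the series gives 21 days. The series describes its replicates as independent biological samples, and the labels do not say how many cochleae went into each.

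Outer hair cells are the sensory cells of the organ of Corti that change length with membrane voltage and so amplify sound, and their motor is the membrane protein prestin (Slc26a5). In this model a tamoxifen-dependent Cre recombinase is made under control of the prestin gene, and recombination of the RiboTag allele puts an HA tag on the ribosomal protein RPL22. Antibody against the tag then pulls down ribosomes with their messenger RNA from recombined cells, while the input holds RNA of every cell type of the cochlea. In such bulk samples fewer cells of a type and less RNA per cell cannot be told apart.

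The IP libraries held 39586316 and 45825067 reads, of which 25021575 and 27008097 were counted to genes; the input libraries held 47064448 and 42661444 reads, with 29876057 and 21093553 in genes. Reads outside annotated genes made up 23.0% and 27.3% of IP, against 11.1% and 14.2% of input, and reads with more than 1 alignment 12.5% and 12.6% of IP against 23.4% and 34.97% of input. The predicted gene Gm42418, which overlaps ribosomal RNA, took 2.38% and 2.69% of gene reads in IP but 5.93% and 18.6% in input. Values are CPM, reads scaled to a fixed total that includes such entries, so these shares move the CPM of every other gene. The median gene tested had a log2 difference of 0.27 between IP and input, and of -0.03 with TMM scaling (trimmed mean of M values, which equalises the bulk of genes). Differences below are of log2(CPM + 1), which understates those of low genes, and are given relative to that median. Each SE, p-value and call belongs to the difference before that median was taken off. For Ikzf2, for example, the value tested was 2.99, where 2.72 is printed.

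Of the marker genes, Ikzf2 was called higher in IP on the deposited CPM of all libraries, while Ocm and Slc26a5 were not, and the call of Ocm depended on the setting. Ikzf2, which encodes the outer hair cell transcription factor helios, had 49.4 and 69.8 CPM in IP, against 8.61 and 4.90 CPM in input. Both IP libraries lay above both input libraries, with a log2 difference of 2.72 (SE 0.77) that passed the test (limma adjusted p = 0.0263). The Ikzf2 call was lost when any 1 of the 4 libraries was left out (limma adjusted p from 0.122 to 0.667), with log2 differences from 2.41 to 3.04. With TMM scaling the Ikzf2 call was lost only without the second IP library (limma adjusted p from 0.0105 to 0.0634). Ocm encodes oncomodulin, the calcium-binding protein most typical of outer hair cells. It had 132 and 111 CPM in IP, against 30.6 and 22.9 CPM in input, so that the groups did not overlap, but its log2 difference of 1.88 (SE 0.71) did not pass the test (limma adjusted p = 0.117). With TMM scaling Ocm passed (log2 1.71, limma adjusted p = 0.0302), but not when any 1 of the 4 libraries was left out (limma adjusted p from 0.138 to 0.198). It also passed on the deposited CPM without the 3 libraries of other ages named below (limma adjusted p = 0.00167) and with edgeR (adjusted p = 0.0337).

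Slc26a5 itself was uneven between the IP libraries, at 11.5 and 0.0655 CPM in IP against 5.35 and 2.74 CPM in input. The second IP library held 3 reads of this gene, where the first held 457 and the input libraries 252 and 117. The IP values therefore lay on both sides of the input values, and no difference passed the test (log2 difference -0.68 with SE 0.9997, limma adjusted p = 0.946). Ikzf2 and Ocm showed no such gap between the IP libraries, with 1956 and 3199 reads of Ikzf2 and 5242 and 5085 reads of Ocm. Rpl22, the gene of the tagged protein, had 48.8 and 51.2 CPM in IP and 71.0 and 54.2 CPM in input (log2 -0.57, limma adjusted p = 0.943). Inner hair cells, the other sensory cell type, are marked by the vesicular glutamate transporter gene Slc17a8 and by the otoferlin gene Otof. Slc17a8 had 7.73 and 4.08 CPM in IP against 17.5 and 7.99 CPM in input. Otof had 15.6 and 7.99 CPM in IP against 19.1 and 9.70 CPM in input, and its groups overlapped.

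**Figure D1:**
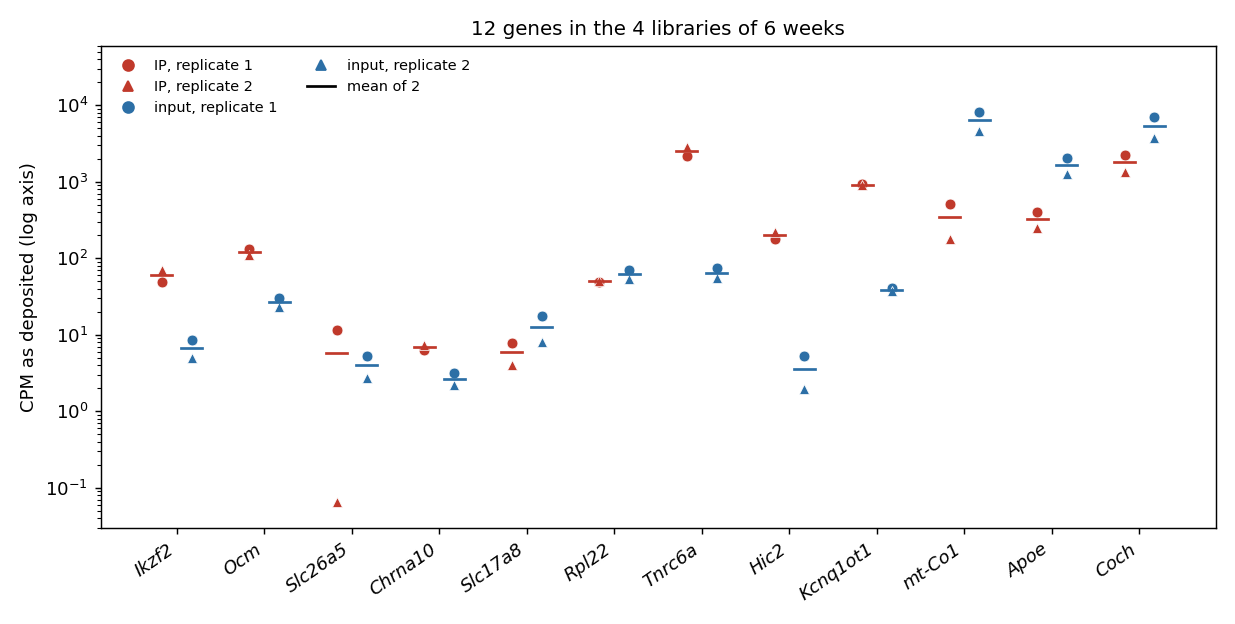
CPM as deposited on a log axis for 12 genes in the IP (left of each pair) and input (right) libraries of 6 weeks, with circles for replicate 1, triangles for replicate 2 and a bar for the mean of 2 libraries. The 2 IP points of Tnrc6a, Hic2, Kcnq1ot1, Ikzf2 and Ocm lie above the input points, those of mt-Co1, Apoe and Coch lie below them, and Slc26a5 splits between 11.5 and 0.0655 CPM in IP.

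Across all genes tested, 236 were higher in IP (1.26%) and 5 were lower (0.0267%) at an adjusted p below 0.05 in limma. These calls were made before the median difference of 0.27 was taken off. With TMM scaling the split was even, at 804 higher (4.29%) and 823 lower (4.39%), and 240 of the 241 genes called on the deposited CPM were called in the same direction. Both IP libraries lay above both input libraries for 39.4% of genes and below them for 17.6%. Among the 236 higher genes, 227 were protein coding. The count rested on all 4 libraries: 33 genes were higher and 3 lower without the first IP library, 20 and 0 without the second, 57 and 2 without the first input, and 15 and 0 without the second. In 3 libraries of other ages few genes had 1 CPM or more. They were the second input of 8 days (9853 genes), the first IP of 14 days (10810) and the second IP of 28 days (10870). A fit without these 3 libraries called 2183 genes higher and 633 lower.

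The largest increase in IP was that of Hic2, a transcriptional repressor gene, with 177 and 223 CPM in IP against 5.27 and 1.95 CPM in input (log2 5.27 with SE 0.85, limma adjusted p = 3.47e-05). Tnrc6a, which encodes the GW182 protein that binds Argonaute in microRNA silencing, came next at 2188 and 2819 CPM in IP against 74.6 and 55.0 CPM in input (log2 4.99 with SE 0.76, limma adjusted p = 1.88e-05). For both genes every IP library lay far above every input library. Prtg, the gene of the immunoglobulin-family protein protogenin, had 161 and 186 CPM in IP and 5.42 and 3.40 CPM in input (log2 4.77). Nr6a1, the gene of the orphan nuclear receptor GCNF, had 256 and 281 CPM in IP and 8.63 and 6.73 CPM in input (log2 4.70). Zcchc3, the gene of a CCHC zinc finger protein that binds nucleic acids, had 350 and 370 CPM in IP and 15.0 and 9.80 CPM in input (log2 4.51). The IP and input values of these 5 genes did not overlap.

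Further genes among the 12 largest increases had log2 differences from 4.48 to 4.22. Igdcc3 (immunoglobulin family, 135 and 151 CPM in IP, 5.01 and 3.73 in input) and Arid3a (a DNA-binding protein of the ARID family, 140 and 186 CPM in IP, 6.44 and 3.98 in input) led them. Lmbr1l, the gene of a lipocalin receptor in human, had 198 and 203 CPM in IP and 10.3 and 5.04 CPM in input. Plagl2, a zinc finger transcription factor gene, had 251 and 238 CPM in IP and 11.7 and 7.10 CPM in input. Yod1, a deubiquitinase gene, had 225 and 283 CPM in IP and 9.77 and 10.9 CPM in input. Kcnq1ot1, an imprinted RNA that is not translated, had 931 and 898 CPM in IP and 41.0 and 37.0 CPM in input. It lies antisense within Kcnq1, and whether the counting used strand is not given in the sources used here. When each of the 4 libraries was left out in turn, 10 of the 11 genes given here remained called in all cases. Plagl2 missed the threshold in 1 case (highest limma adjusted p 0.0563).

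**Figure D2:**
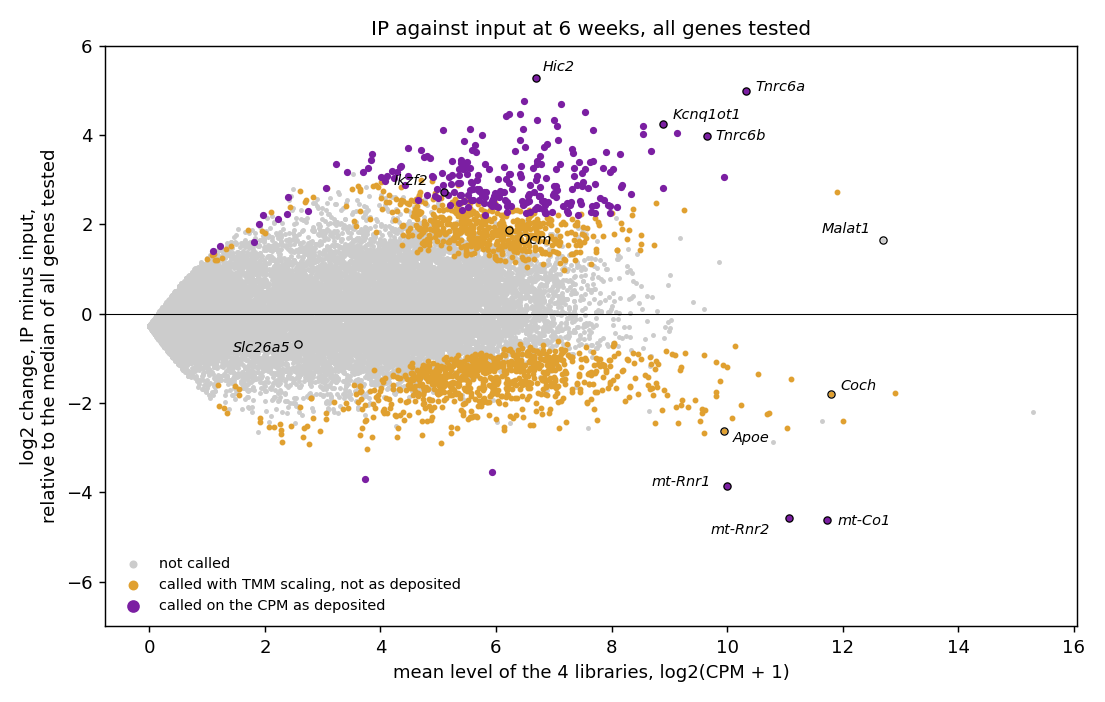
Log2 difference of IP minus input at 6 weeks relative to the median of the 18737 genes tested, against the mean log2(CPM + 1) of the 4 libraries, 1 point per gene. Purple points are the 236 higher and 5 lower genes called on the deposited CPM, orange points are called with TMM scaling only, and grey points are not called; Hic2 and Tnrc6a stand at the top and mt-Co1 at the bottom.

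Many of the most increased genes are textbook targets of the let-7 microRNAs, short RNAs that guide Argonaute proteins to complementary sites in the 3′ untranslated region (UTR) of a messenger RNA. The members of the family share the seed at bases 2 to 8, which is in capitals here, and 11 mouse microRNAs of the RefSeq table (GRCm38.p6) carry it. The miR-183 cluster, which is abundant in hair cells, is shown beside them for its different seeds.
let-7a-5p: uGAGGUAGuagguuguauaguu
let-7b-5p: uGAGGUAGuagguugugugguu
let-7g-5p: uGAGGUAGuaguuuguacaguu
let-7i-5p: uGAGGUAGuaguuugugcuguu
miR-98-5p: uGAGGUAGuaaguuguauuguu
miR-96-5p: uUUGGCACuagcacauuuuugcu
miR-182-5p: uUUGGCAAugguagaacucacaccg
miR-183-5p: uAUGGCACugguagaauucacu

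The complement of the let-7 seed, CTACCTC, was searched on the transcript strand of the longest 3′ UTR of each gene in GENCODE M21 (GRCm38, the build of the files). Of the 12 most increased protein-coding genes, 10 held a match. The first match in 5 of them is shown in capitals with 10 bases on each side.
Hic2, chr16:17259374-17259400, + strand: ggtgactattCTACCTCcctgggccca
Prtg, chr9:72912563-72912589, + strand: tgctgaatagCTACCTCagtttgctgt
Zcchc3, chr2:152413253-152413279, - strand: ttttattttaCTACCTCcctcctcata
Igdcc3, chr9:65185712-65185738, + strand: ctctcagcacCTACCTCagccggaatg
Yod1, chr1:130719434-130719460, + strand: tgggagcctaCTACCTCacagatccag
Hic2 held 4 matches in 4262 bases of UTR, and the other 4 genes shown held 2 each. No match was found in this window for Tnrc6a, Lmbr1l, Ikzf2, Ocm or Slc26a5. A match describes the letters only and is not a measured site.

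Genes with a let-7 match lay higher in IP, and the median was higher with more matches. Among 14805 tested protein-coding genes with a 3′ UTR, 1558 (10.5%) held at least 1 match, as did 83 of the 227 called higher (36.6%). The median log2 difference was -0.03 for 13247 genes with none, 0.58 for 1362 genes with 1, 0.87 for 168 genes with 2 and 2.04 for the 28 genes with 3 or more. The share called higher was 1.09%, 3.82%, 11.9% and 39.3% in the same order, beside 1.26% of all genes tested. With TMM scaling these shares were 4.02%, 13.1%, 27.4% and 57.1%. Of the 500 protein-coding genes with the largest increase 187 held a match (37.4%), and of the 500 with the largest decrease 10 did (2%). The known targets in the gene lists were chosen with these results in view, so that they add no independent evidence.

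**Figure D3:**
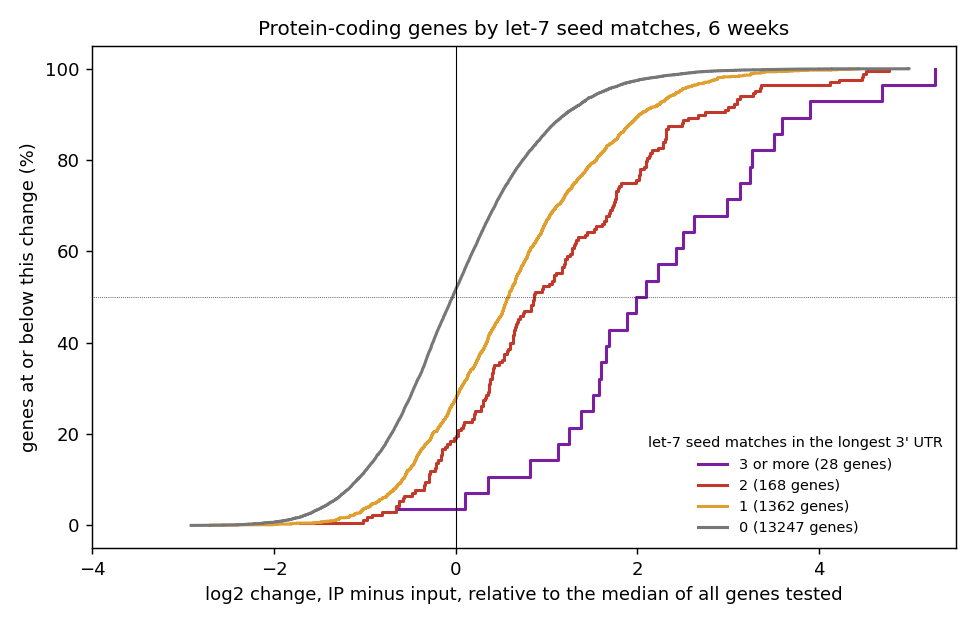
Share of protein-coding genes (percent) at or below each log2 difference of IP minus input at 6 weeks, relative to the median of all genes tested, in 4 classes by the number of let-7 seed matches in the longest 3′ UTR. The curves move to the right from 0 matches (median -0.03) through 1 (0.58) and 2 (0.87) to the 28 genes with 3 or more (2.04).

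Genes with matches also have longer UTRs, with a median of 4461.5 bases at 3 or more matches and 1083 bases at none, and the difference between IP and input moved with UTR length. In 4 classes of equal size by UTR length, with at least 1 match the median log2 differences were 0.42, 0.41, 0.61 and 0.70 in the classes in order of rising length, and without a match they were -0.34, -0.11, 0.08 and 0.37. The part of UTR length in the let-7 medians was not tested. Among the 1354 microRNA seeds with matches in at least 200 genes, that of let-7 had the highest median (0.62), followed by miR-30 (0.54), miR-26 (0.52) and miR-29 (0.52). The seeds of miR-96 (0.34, rank 80), miR-182 (0.34, rank 85) and miR-183 (0.31, rank 245) stood lower by median. By the share of genes called higher, let-7 ranked 2 (5.33%). Matches to different seeds occur in the same long UTRs, so that these medians and shares are not independent of each other.

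RNAs that encode proteins of microRNA silencing were among the genes called higher in IP. In the GW182 and Argonaute family 4 of 7 members were called higher and none lower, beside 1.26% of all genes called higher. This list too was chosen with earlier results of these data known, so that its count adds no independent evidence. All 7 lay above input in both IP libraries, as did 39.4% of all genes, and the median log2 difference was 3.24. Tnrc6b had 1521 and 1522 CPM in IP against 92.7 and 67.1 CPM in input (log2 3.98, limma adjusted p = 0.000407). Tnrc6c had 707 and 720 CPM in IP against 41.3 and 29.98 CPM in input (log2 4.03). Ago2, the Argonaute that cleaves its targets, had 521 and 438 CPM in IP against 52.7 and 32.1 CPM in input (log2 3.24), with 3 let-7 matches in its UTR. The remaining Argonaute genes Ago1, Ago3 and Ago4 had log2 differences of 1.21, 1.90 and 1.64 that did not pass. In all, the RNAs of this family summed to 5198 and 5728 CPM in IP, against 350 and 239 CPM in input. Among 13 tested microRNA processing genes 2 were called higher and none lower, and the median was 0.54. Dicer1, which cuts precursor microRNAs, had 609 and 442 CPM in IP against 45.2 and 27.4 CPM in input (log2 3.57, limma adjusted p = 0.000625). Lin28b, which blocks let-7 maturation and is itself a let-7 target, had 20.03 and 28.7 CPM in IP against 1.32 and 1.01 CPM in input (log2 3.27, limma adjusted p = 0.0402). When each of the 4 libraries was left out in turn, Lin28b was not called in any case (limma adjusted p from 0.227 to 0.623), Ago2 was called in 1 case and Dicer1 in 2 (highest limma adjusted p 0.273 and 0.108), and Tnrc6b in 3 (0.0598). With edgeR the adjusted p of Lin28b was 0.175. Drosha, which makes the precursors in the nucleus, had 34.3 and 33.5 CPM in IP and 44.5 and 28.0 CPM in input, and its groups overlapped.

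In the list of known let-7 targets 14 of 26 tested members were called higher and none lower, with a median log2 difference of 3.25. In both IP libraries 25 of 26 lay above input, and over all genes 1.26% were called higher and 39.4% lay above. Beside those given above, Trim71, an RNA-binding ubiquitin ligase gene, had 22.8 and 29.1 CPM in IP against 0.956 and 0.750 CPM in input (log2 3.59). Nras, a RAS oncogene, had 285 and 394 CPM in IP against 34.3 and 23.4 CPM in input (log2 3.25). Hmga1, another well-known target, did not pass: it had 5.18 and 0.502 CPM in IP and 2.76 and 1.17 CPM in input, and its groups overlapped. Among 18 tested fetal and neonatal growth genes 4 were called higher, beside 1.26% of all genes. They were H19 (97.6 and 80.2 CPM in IP, 6.14 and 3.73 in input), an imprinted RNA that hosts a microRNA, Sox11 (252 and 345 CPM in IP, 16.5 and 19.9 in input), a transcription factor of immature neurons, Lin28b, and the imprinted gene Peg3 (225 and 290 CPM in IP, 47.1 and 40.6 in input, limma adjusted p = 0.0498). With 1 of the 4 libraries left out in turn, Peg3 was called in no case, H19 in 1 and Sox11 in 3 (highest limma adjusted p 0.667, 0.123 and 0.0787). Cdkn1c, a growth inhibitor gene in the same list, lay below input at 24.5 and 21.3 CPM in IP against 89.8 and 49.3 CPM in input and was called lower only with TMM scaling.

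Several gene families, chosen after their values were seen, are given as a description only, beside the 1.26% of all genes called higher. All 3 TET genes, which encode enzymes that oxidise methylated cytosine in DNA, were called higher. Tet3 had 641 and 790 CPM in IP against 37.3 and 25.9 CPM in input (log2 4.21, limma adjusted p = 5.94e-05). Of the DNA methyltransferase genes, Dnmt3a had 771 CPM in both IP libraries against 63.7 and 39.8 CPM in input (log2 3.64) and Dnmt3b was also called. Dnmt1, the maintenance enzyme, had 21.98 and 11.5 CPM in IP and 21.5 and 11.6 CPM in input. The Polycomb partner Jarid2 had 368 and 410 CPM in IP against 19.1 and 16.4 CPM in input (log2 4.11), and 4 of 25 Polycomb genes were called. In the BCL2 family of apoptosis regulators 5 of 14 were called: Mcl1 and the pro-apoptotic Bak1, Bik, Bmf and Bbc3. Bbc3 had 45.6 and 49.99 CPM in IP against 2.29 and 2.04 CPM in input (log2 3.68). Among 25 immediate early and short-lived RNAs 5 were called, such as Zfp36 with 238 and 273 CPM in IP against 17.4 and 10.1 CPM in input, while Fos had 6.62 and 6.70 CPM in IP and 2.42 and 2.44 CPM in input and did not pass. Ikzf4, in the same family as Ikzf2, had 65.5 and 91.7 CPM in IP against 6.46 and 4.83 CPM in input (log2 3.31, limma adjusted p = 0.00837).

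The list of nuclear-retained and untranslated RNAs lay mostly above input. Of 13 members tested, 12 were above in both libraries (39.4% of all genes were), with a median log2 difference of 1.27, and Kcnq1ot1 was the one called (1.26% of all genes were). Malat1, a nuclear speckle RNA, had 7892 and 13269 CPM in IP against 2976 and 2434 CPM in input (log2 1.66, limma adjusted p = 0.523). With TMM scaling 3 of the 13 were called higher, Snhg11 and Snhg14 among them, beside 4.29% of all genes. Gas5 was the member whose groups overlapped.

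Few genes of hair cells were called higher. Of 17 outer hair cell markers 1 was called (Ikzf2), beside 1.26% of all genes. In both IP libraries 9 of them lay above input and none below, beside 39.4% and 17.6% of all genes, and the median log2 difference was 0.82. Mreg, the melanoregulin gene, had 25.6 and 23.5 CPM in IP against 7.10 and 5.67 CPM in input (log2 1.53). Chrna10, a subunit of the acetylcholine receptor that takes efferent input, had 6.24 and 7.42 CPM in IP against 3.14 and 2.20 CPM in input (log2 0.83). None of these passed the test. With TMM scaling Ocm was called beside Ikzf2. Tmem63b, a channel gene, had 34.2 and 19.5 CPM in IP against 57.6 and 33.7 CPM in input and was called lower with TMM scaling. The markers summed to 629 and 596 CPM in IP, against 361 and 244 CPM in input.

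Among 23 tested transcription factors of hair cells Ikzf2 alone was called, but 19 lay above input in both IP libraries and none below (39.4% and 17.6% of all genes), with a median log2 difference of 0.69. Pou4f3, a hair cell survival factor, had 17.001 and 11.7 CPM in IP against 7.12 and 5.30 CPM in input (log2 0.81), and Rfx3 had 44.3 and 39.0 CPM in IP against 8.99 and 6.47 CPM in input (log2 2.03, limma adjusted p = 0.162). With TMM scaling Rfx7, Prox1 and Tbx2 were called as well. Prox1 is also listed as a supporting cell marker and Tbx2 as an inner hair cell marker. Bcl11b, a zinc finger gene listed as an outer hair cell marker, had 11.3 and 91.7 CPM in IP and 1.95 and 11.9 CPM in input, so that the second sample was high in both fractions. Among all genes, 15 were higher by at least 2 on the log2 scale in the second sample of both fractions, Bcl11b among them, and their part in its value was not tested. In the list of markers shared by both hair cell types none of 19 was called, 10 lay above input and 3 below (median 0.45). The 3 below were the abundant Fbxo2 (533 and 357 CPM in IP, 1734 and 971 in input), Calm2 (174 and 175 CPM in IP, 369 and 287 in input) and Pvalb (41.8 and 51.0 CPM in IP, 161 and 122 in input). These genes are also active in supporting cells or neurons. Of 38 genes of the hair bundle and mechanotransduction none was called and the median was -0.01, with Rdx (163 and 170 CPM in IP, 107 and 73.0 in input) above and Actb (265 and 267 CPM in IP, 548 and 368 in input) below. Of 21 channel and synapse genes none was called (median 0.33). Atp2b2, the calcium pump of the outer hair cell bundle, had 187 and 148 CPM in IP against 113 and 66.9 CPM in input. Of 11 inner hair cell markers none was called, 3 lay above input and 3 below. Their median of -0.27 is the value of Fgf8, which is listed at 0 in all 4 libraries. Tbx2, which sets inner against outer hair cell fate, had 196 and 146 CPM in IP against 69.5 and 42.7 CPM in input, and Calb2, the calretinin gene, had 154 and 201 CPM in IP against 499.8 and 414 CPM in input.

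**Figure D4:**
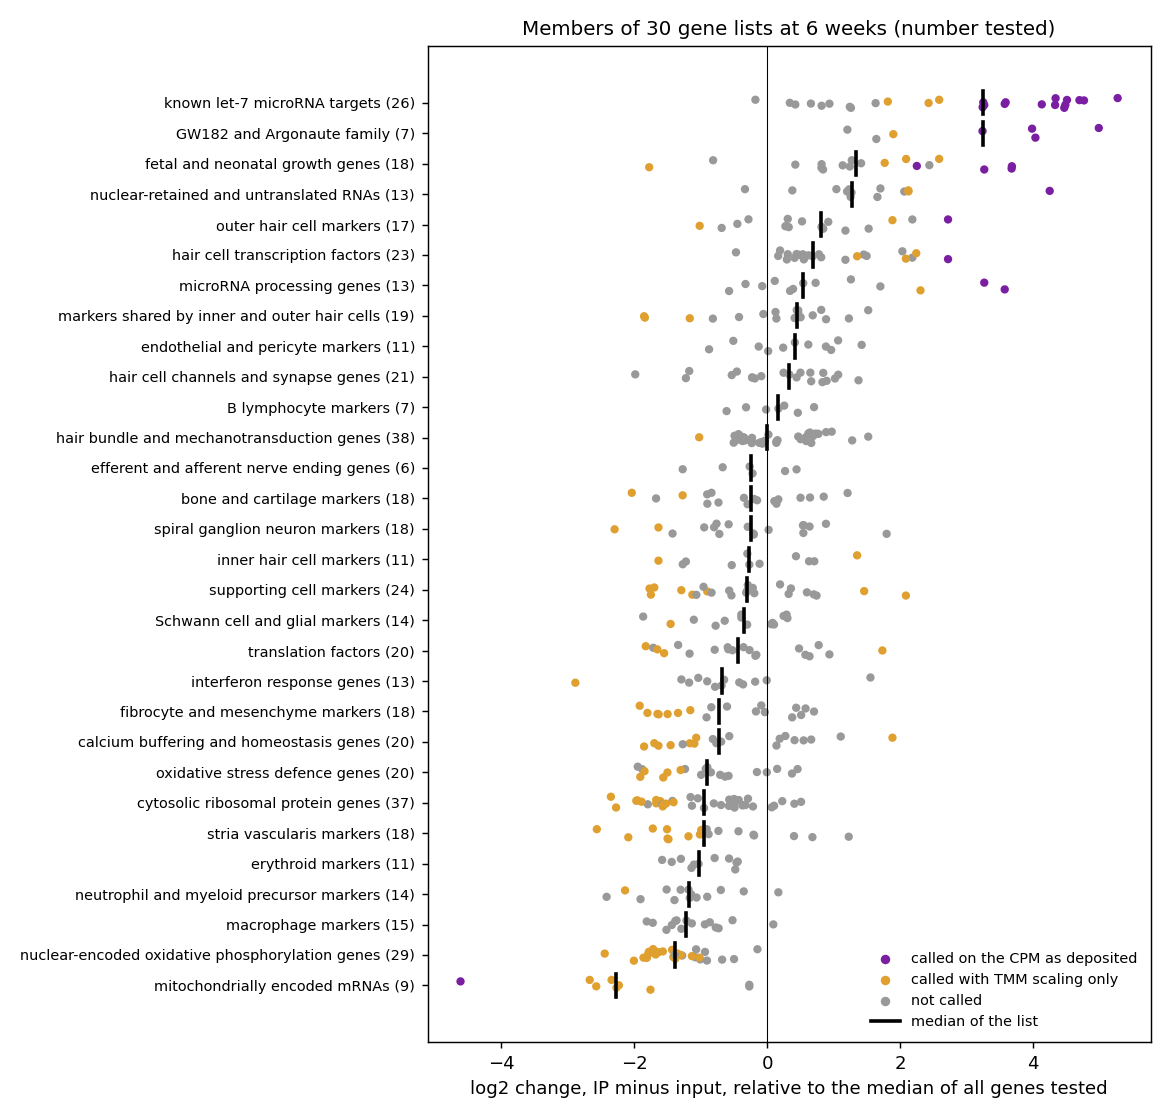
Log2 difference of IP minus input at 6 weeks, relative to the median of all genes tested, for the tested members of 30 gene lists (number tested in brackets), 1 point per gene and a black bar for the list's median. Known let-7 targets (median 3.25) and the GW182 and Argonaute family (3.24) lie at the top, and nuclear-encoded oxidative phosphorylation genes (-1.38) and mitochondrially encoded mRNAs (-2.27) at the bottom. The lists were chosen with earlier results of these data known.

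The lower calls on the deposited CPM were mitochondrial RNAs and 2 pseudogenes. mt-Co1, a subunit of cytochrome oxidase, had 507 and 181.6 CPM in IP against 8317 and 4588 CPM in input (log2 -4.61 with SE 0.89, limma adjusted p = 0.00255). Both RNAs of the mitochondrial ribosome fell as well, mt-Rnr2 (247 and 163 CPM in IP, 3148 and 5105 in input, log2 -4.58) and mt-Rnr1 (142 and 157 CPM in IP, 1314 and 2488 in input, log2 -3.86). All 3 lost the call when 1 library was left out, mt-Co1 without any 1 but the first IP library (highest limma adjusted p 0.328). The log2 difference of mt-Co1 stayed between -5.28 and -3.94 in these cases, and with TMM scaling it was called in each (highest limma adjusted p 0.00301). Of 9 tested mitochondrial mRNAs 7 lay below input in both IP libraries, 1 was called lower, and 7 were called lower with TMM scaling (median -2.27). The other 2, mt-Co2 and mt-Co3, are listed at 0 in all 4 libraries. Over all genes, 17.6% lay below input and 4.39% were called lower with TMM scaling. mt-Cytb had 1097 and 410 CPM in IP against 4503 and 2434 CPM in input. Mitochondrial mRNA as a whole made up 0.667% and 0.304% of gene reads in IP, against 3.43% and 2.48% in input. These RNAs are translated inside mitochondria, on ribosomes of their own.

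Nuclear genes of oxidative phosphorylation went the same way. Of all genes, 39.4% lay above input in both IP libraries and 17.6% below. With TMM scaling 4.29% of all genes were called higher and 4.39% lower. None of 29 was called on the deposited CPM, but 27 lay below input in both IP libraries and 19 were called lower with TMM scaling, with a median log2 difference of -1.38. Atp5b, a catalytic subunit of ATP synthase, had 198 and 116 CPM in IP against 880 and 537 CPM in input (log2 -2.44, limma adjusted p = 0.125, and 0.000103 with TMM scaling), and Atp5a1 had 251 and 186 CPM in IP against 713 and 462 CPM in input. Of 37 genes of cytosolic ribosomal proteins none was called on the deposited CPM, while 22 lay below input and 12 were called lower with TMM scaling (median -0.95). Rpl8 had 93.3 and 121 CPM in IP against 295 and 220 CPM in input, and Rps3 had 337 and 249 CPM in IP and 354 and 243 CPM in input, with overlapping groups. These genes have many near-identical copies. The share of reads with more than 1 alignment, which are counted to no gene, was larger in input than in IP, as given above. Whether this bears on the values of these genes was not tested. Of 20 translation factors none was called (median -0.44), 1 was higher and 3 lower with TMM scaling, and 5 lay above input and 8 below. Eif4g2, an initiation factor, had 605 and 695 CPM in IP against 428 and 279 CPM in input, and Eef2, the elongation factor, 294 and 204 CPM in IP against 782 and 456 CPM in input.

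The median marker of supporting cells, stria vascularis and fibrocytes lay below that of all genes, and none was called on the deposited CPM. With TMM scaling 4.39% of all genes were called lower and 4.29% higher. In both IP libraries 39.4% of all genes lay above input and 17.6% below. Of 18 markers of the stria vascularis, which secretes endolymph, 3 lay above input and 9 below, and 9 were lower with TMM scaling (median -0.95). Slc12a2 had 613 and 469 CPM in IP against 1756 and 902 CPM in input, and Atp1b2 498 and 305 CPM in IP against 1018 and 531 CPM in input. Of 18 markers of fibrocytes and mesenchyme 4 lay above input and 8 below, and 7 were lower with TMM scaling (median -0.72). Coch had 2279 and 1355 CPM in IP against 6956 and 3716 CPM in input. Otos had 1087 and 792 CPM in IP against 2600 and 1465 CPM in input. Of 24 supporting cell markers 7 lay above input and 7 below, and 6 were lower and 2 higher with TMM scaling (median -0.31). Prox1, among those higher with TMM scaling, had 79.9 and 72.4 CPM in IP against 15.4 and 12.8 CPM in input. Its log2 difference of 2.09 was the largest of this list. The gap junction gene Gjb2 had 508 and 308 CPM in IP and 867 and 434 CPM in input, with overlapping groups.

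No gene of the neural, glial and bone lists was called on the deposited CPM. Of 18 spiral ganglion neuron markers (median -0.25) 7 lay above input in both IP libraries and 6 below, beside 39.4% and 17.6% of all genes. With TMM scaling 2 of them were lower, beside 4.39% of all genes. Gap43 had the largest increase of the list, at 98.8 and 57.0 CPM in IP against 15.3 and 19.3 CPM in input. Snap25 had 296 and 332 CPM in IP against 575 and 439 CPM in input. Of 14 Schwann cell and glial markers 5 lay above input and 5 below, and 1 was lower with TMM scaling (median -0.34). S100b had 1464 and 1207 CPM in IP against 3812 and 2393 CPM in input. Of 6 genes listed for nerve endings on hair cells none was called (median -0.24). Gata3, which is also listed as a hair cell transcription factor, had 71.6 and 73.98 CPM in IP and 51.7 and 37.6 CPM in input. Gad2 had 5.86 and 19.4 CPM in IP and 8.37 and 13.8 CPM in input. Of 18 bone and cartilage markers 4 lay above input and 5 below, and 2 were lower with TMM scaling (median -0.25). Spp1, the osteopontin gene, had 613 and 477 CPM in IP against 2225 and 1529 CPM in input, and Sox9 had 123 and 135 CPM in IP and 126 and 77.6 CPM in input.

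Most myeloid and erythroid markers lay below input, and none was called on the deposited CPM. Of all genes, 17.6% lay below input in both IP libraries and 4.39% were called lower with TMM scaling. Of 15 macrophage markers 12 lay below input (median -1.21), summing to 67.5 and 61.6 CPM in IP against 151 and 113 CPM in input, with Lyz2 at 11.6 and 12.5 CPM in IP against 29.5 and 26.98 CPM in input and Cd74 at 9.98 and 3.97 CPM in IP against 16.7 and 11.7 CPM in input. Of 14 neutrophil and myeloid precursor markers 11 lay below and 1 was lower with TMM scaling (median -1.17), with S100a9 at 20.2 and 20.9 CPM in IP against 33.2 and 45.9 CPM in input and Ngp at 8.97 and 6.37 CPM in IP against 22.4 and 29.3 CPM in input. Among 11 erythroid markers 7 lay below (median -1.03). Hbb-bs, an adult beta globin gene, had 90.99 and 85.2 CPM in IP against 191 and 207 CPM in input, and Car2, which other cochlear cells use too, had 433 and 339 CPM in IP and 562 and 350 CPM in input. Of the 7 tested B lymphocyte markers (median 0.17) 5 lay above input in both IP libraries and 1 below. Of the 11 endothelial and pericyte markers (median 0.42) 6 lay above and 1 below, beside 39.4% and 17.6% of all genes. Ebf1 had 162 and 181 CPM in IP against 114 and 66.2 CPM in input. Ighm had 6.24 and 8.55 CPM in IP against 5.72 and 4.62 CPM in input. The B cell gene Cd79b was near the floor in both fractions, with 0 CPM in both IP libraries and 0.149 and 0.398 CPM in input. Cd79a, Vpreb3 and Pax5, counted among the B lymphocyte markers above input, were also low in both fractions. The highest of their values was 2.25 CPM, for Pax5 in the first IP library, so that their places above input rest on low values. Rgs5, a pericyte gene, had 195 and 138 CPM in IP and 172 and 106 CPM in input, and Pdgfrb 87.4 and 93.3 CPM in IP and 53.0 and 30.3 CPM in input. The part of these other cell types in the results above was not tested.

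Lists of oxidative stress, calcium and interferon genes had medians below that of all genes, without a call on the deposited CPM. Of all genes, 17.6% lay below input in both IP libraries. With TMM scaling 4.39% of all genes were called lower and 4.29% higher, so that the interferon count below is near that share. Of 20 oxidative stress genes 13 lay below input and 5 were lower with TMM scaling (median -0.91), with Gpx3 at 160 and 145 CPM in IP against 402 and 245 CPM in input and Prdx6 at 154 and 133 CPM in IP and 142 and 100.2 CPM in input. Of 20 genes of calcium buffering and homeostasis 7 were lower and 1 higher with TMM scaling (median -0.73), with S100a1 at 262 and 249 CPM in IP against 855 and 557 CPM in input. Of 13 interferon response genes 1 was lower with TMM scaling (median -0.69), with Ifi27 at 87.5 and 69.7 CPM in IP against 202 and 126 CPM in input and Ifitm3 at 53.7 and 37.8 CPM in IP and 76.1 and 45.5 CPM in input. The interferon-inducible Ifi27l2a had 8.36 and 8.16 CPM in IP against 60.8 and 51.2 CPM in input (log2 -2.88, limma adjusted p = 0.132, and 0.0207 with TMM scaling). The lipid carrier gene Apoe had 399 and 246 CPM in IP against 2030 and 1267 CPM in input (log2 -2.62, limma adjusted p = 0.119, and 7.45e-05 with TMM scaling). These 2 genes were named after their values were seen.

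Whether enrichment at 6 weeks differed from that at the other ages was tested as a difference of differences. Against 10 weeks no gene passed in limma (0%), with 203 genes at an unadjusted p below 0.05, none called by edgeR and 19 by DESeq2. Against the mean of the 4 other ages no gene passed in limma (0%), with 147 genes at an unadjusted p below 0.05, none called by edgeR and 25 by DESeq2. A difference that misses the threshold is not shown to be absent. Hic2 was enriched by 4.94, 5.08, 4.92, 5.27 and 3.36 on the log2 scale at 8, 14 and 28 days and at 6 and 10 weeks, and Tnrc6a by 5.61, 4.91, 4.10, 4.99 and 3.45. The 3 IP libraries of 10 weeks were far apart in both genes, at 6.12 to 135 CPM of Hic2 and 214 to 1489 CPM of Tnrc6a. Of the 11 genes given above among the 12 most increased, 10 lay above input in every library at all 5 ages, and Zcchc3 did so at 4 of the 5. Ikzf2 was enriched by 2.59, 2.98, 2.19, 2.72 and 1.88 at these ages and Ocm by 2.97, 1.89, 1.93, 1.88 and 2.85. For Slc26a5 the values were 2.25, -0.21, 0.13, -0.68 and 2.19. The value at 6 weeks rests on the second IP library with its 3 reads: it was 1.03 without that library and -2.39 without the first.

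List medians at 6 weeks are set beside those at 10 weeks as a description, and their difference was not tested. Hair bundle and mechanotransduction genes had a median log2 difference of -0.01 at 6 weeks and 0.60 at 10 weeks, markers shared by both hair cell types 0.45 at 6 weeks and 0.82 at 10 weeks, and outer hair cell markers 0.82 at 6 weeks and 1.0003 at 10 weeks. Known let-7 targets went the other way, with 3.25 at 6 weeks and 1.90 at 10 weeks, as did the GW182 and Argonaute family with 3.24 at 6 weeks and 2.10 at 10 weeks. The IP libraries of 10 weeks were far apart in Hic2 and Tnrc6a, members of these lists, as given above. The part of this spread in the 10-week medians was not tested. The largest gene-level differences from 10 weeks, none of which passed (limma adjusted p = 1), were Kcnk3, Ptchd1, Inhba, Mycn and Serf1 upwards and Rpl19, Slc26a5, Rn7sk, Rpph1 and Mir6236 downwards. Kcnk3, a potassium channel gene, had 80.9 and 67.7 CPM in IP against 8.18 and 6.19 CPM in input at 6 weeks, an enrichment of 2.94 that compares with 0.50 at 10 weeks. Rn7sk, a nuclear RNA that restrains transcription elongation, had 78.2 and 88.2 CPM in IP and 69.95 and 95.8 CPM in input at 6 weeks, with enrichments of -0.25 at 6 weeks and 2.62 at 10 weeks. Against the mean of the other ages the largest were Foxj1, Sparc, Rpusd1, Kcnk10 and Eln upwards and Naprt, Cers1, Gucy1a1 and Slc26a5 downwards. Sparc, a secreted matrix protein gene of mesenchyme, had 6877 and 6656 CPM in IP against 1037 and 695 CPM in input at 6 weeks.

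**Figure D5:**
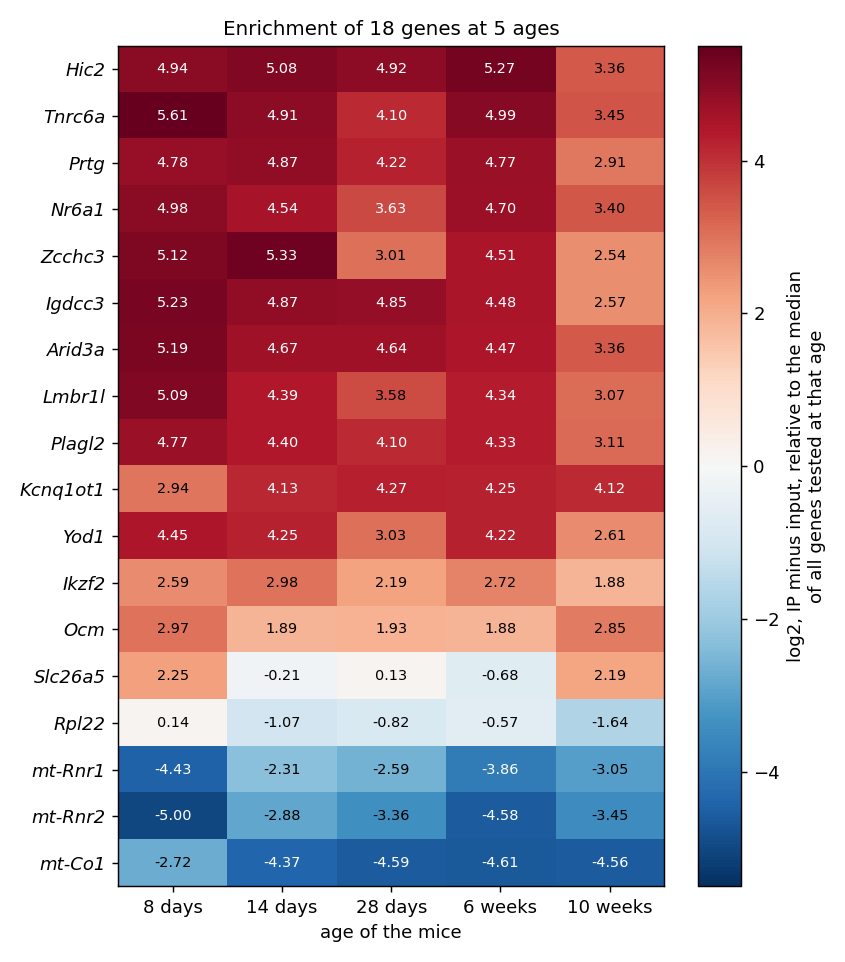
Log2 difference of IP minus input, relative to the median of all genes tested at that age, for 18 genes (rows) at 8, 14 and 28 days and at 6 and 10 weeks (columns), each from the means of 2 libraries per fraction, or 3 at 10 weeks. The 11 genes from Hic2 to Yod1, all among the 12 most increased of 6 weeks, are positive at all 5 ages, the 3 mitochondrial RNAs negative, and Slc26a5 changes sign between -0.68 at 6 weeks and 2.19 at 10 weeks.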

How the data were processed

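The deposited tables hold CPM values per gene for each library, scaled by the authors to all reads of the table, with 5 entries that name no gene (38.9% of reads in IP and 43.5% in input at 6 weeks, means of 2). Build GRCm38 and the aligner TopHat are named in the submitters' processing notes; no source used here gives the counter, its strand setting or its annotation. All values came out as whole reads (100%, tolerance 0.01). Genes with at least 1 CPM in at least 2 of the 22 libraries were tested with limma 3.58.1 (R 4.3.3, with trend) on log2(CPM + 1), with 10 group means fitted over all libraries, so that the 2 libraries per group borrowed the spread of the other ages, and with Benjamini-Hochberg adjustment over all genes (threshold 0.05). p-values measure the spread between these samples. Recovered reads were also tested with edgeR 4.0.16 and DESeq2 1.42.0. Fits were tested on simulated data. Other settings were TMM, quantile and gene-read scaling, a pseudocount of 0.25, no filter, fewer libraries and a replicate block.

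Named were the 12 largest called changes each way (group mean of 5 CPM or more on the higher side, predicted genes left out, libraries of the groups not overlapping), Ikzf2, Ocm, Slc26a5, Rpl22, up to 4 called members each way of each of 30 lists (506 genes, of which 505 were measured and 487 tested) or its 2 most abundant members, and up to 5 genes each way of each comparison between ages. Other genes named were chosen after their values were seen. The members and lists were chosen with earlier results of these data known. Sequences are from RefSeq (GRCm38.p6) and GENCODE M21 transcripts. Some genes that the rule names are not reported here.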

Additional observations from a re-analysis of the deposited data

Results flagged for a closer look

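Reads that fell outside annotated genes were more frequent in IP. They entered the comparisons on the deposited CPM only through the total to which reads were scaled. Such reads made up 25.2% of reads in IP at 6 weeks (mean of 2 libraries, SD 3.07), against 12.6% in input (SD 2.22). The 2 IP libraries, at 23.0% and 27.3%, lay above both input libraries, at 11.1% and 14.2%. This difference was not tested, and the tables do not record which positions the reads came from.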

How the results depend on the processing

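The deposited CPM gave 236 genes higher and 5 lower in IP. Higher and lower counts were 804 and 823 with TMM scaling, 1205 and 1308 with quantile normalization, 585 and 82 over gene reads, 958 and 622 without Gm42418, mitochondrial and haemoglobin genes, 116 and 30 with no filter, 1757 and 218 with only the libraries compared, 2183 and 633 without the 3 libraries with few genes (1392 and 1721 with TMM scaling, added after seeing the data), 727 and 716 with edgeR, and 1369 and 1029 with DESeq2. Leaving out 1 of the 4 libraries gave 15 to 57 higher and 0 to 3 lower, and with TMM scaling (added after seeing the data) 168 to 354 higher and 170 to 427 lower. Between ages, the count of 0 became 86 against 10 weeks and 48 against the other ages with no filter, and 19 and 25 with DESeq2. The cause was not tested.

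Same-numbered deviations correlated at -0.0218 at 8 days, 0.0795 at 14 days, 0.039 at 28 days, 0.351 at 6 weeks and 0.112 to 0.217 at 10 weeks, where every library correlated best with its own number. The column headers of the 6-week files carry the same sample name in IP and input of the same number, so that they pair the fractions. The fit without the block was kept because not every age passed 0.1. The calls and SEs given above therefore leave this pairing at 6 weeks out. A replicate block gave 265 higher and 6 lower, and 831 and 889 with TMM scaling.

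Small log2 differences changed sign, none of them called. Slc26a5 was 0.066 with edgeR and 0.065 with DESeq2, and Gad2 0.0051 and Prdx6 0.26 with no filter. Sox9 was -0.065 with TMM scaling (also under the block and without the 3 libraries), -0.0040 without Gm42418, mitochondrial and haemoglobin genes, -0.060 with edgeR, -0.043 with DESeq2 and -0.12 with quantile normalization. Rgs5 was -0.16 with TMM scaling (block and without the 3 libraries too) and quantile normalization, -0.098 without Gm42418, mitochondrial and haemoglobin genes, -0.15 with edgeR, -0.14 with DESeq2, -0.054 with a pseudocount of 0.25 and -0.051 over gene reads. Leaving out 1 library gave -2.39 to 1.03 for Slc26a5, -1.11 to 0.59 for Gad2, -0.060 to 0.26 for Sox9, -0.093 to 0.44 for Ighm, -0.16 to 0.20 for Rgs5 and -0.076 to 0.053 for Prdx6.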

Other observations

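The samples numbered 2 and 1 at 6 weeks differed in the same genes in both fractions. With a difference of at least 2 on the log2 scale in IP and in input, 15 genes were higher in number 2, 3 were lower and 0 went opposite ways. Grin2b, a glutamate receptor subunit gene of forebrain neurons, had 7.86 and 108 CPM in IP and 4.42 and 26.8 CPM in input. Doc2g had 2.25 and 35.2 CPM in IP and 1.91 and 18.5 CPM in input. Dlx1, Sp8 and Sp9, known in mouse as transcription factor genes of forebrain and olfactory bulb interneurons, were also among the 15. Bpifa1, a secreted airway protein gene, was among the 3 lower genes, at 99.5 and 22.96 CPM in IP and 516 and 30.4 CPM in input. Whether these genes bear on any other value was not tested.

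A few genes were found in 1 IP library only. With at least 5 CPM in one and under 0.2 CPM in the other, 8 genes were in the first IP library alone, among them Slc26a5, Kcng4 and Gbp9, and 4 were in the second alone, among them Zfp831 and Stum. No gene met this rule between the input libraries (0 in each direction).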
